A study of Mus musculus with 6 samples.

Results

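The cubilin receptor complex and the genes of the primitive endoderm were examined in mouse embryonic stem cells kept alive by different POUV proteins. The 8 genes were Cubn, Amn, Lrp2, Dab2, Gata4, Gata6, Pdgfra and Foxa2, found as the array probes whose RefSeq transcript carries one of these symbols. They are 8 of 20972 genes with a named probe, and 5 of them were among the 14590 genes that passed the detection filter and were fitted. The set was proposed with earlier results of these arrays known: it was chosen by the level of Cubn in the LcPOU5F1 lines and by the levels of Dab2 and Amn in the LcPOU5F3 lines, each set against the mOct4 lines. For these 3 genes all values below, calls included, are therefore descriptions and carry no p-value.

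ZHBTc4 cells are mouse embryonic stem cells whose only working Oct4 is a transgene that tetracycline shuts off. Per the labels' protocols they received a pCAG-IP-POUV plasmid and were kept in tetracycline at 2 µg/mL, with selection by puromycin at 1 µg/mL starting on day 2. Single colonies were taken on day 9 and grown into stable lines. The groups were rescued by coelacanth POU5F1 (LcPOU5F1, clones 4 and 5), coelacanth POU5F3 (LcPOU5F3, clones 1 and 2) or mouse OCT4 (mOct4, clones 1 and 2), and all 6 lines were grown with both drugs and share the parental cells. Each line is 1 picked clone measured on 1 array, so the spread within a group is that between 2 separately selected clones and their arrays. The series asks how far each coelacanth paralog can take the place of mouse OCT4.

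Cubilin is a large extracellular receptor that binds the complex of vitamin B12 and intrinsic factor and many other ligands. It has no membrane anchor of its own. Amnionless carries it to the cell surface, megalin (Lrp2) works beside it, and the adaptor Dab2 links both to clathrin for uptake. In the early mouse embryo these proteins are made by the extraembryonic endoderm that descends from the primitive endoderm, a lineage set up by Gata6 and Gata4 and marked by the receptor Pdgfra, while Foxa2 acts in endoderm more widely.

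The starts of the 3 members whose levels differed most between the coelacanth groups are shown first, so that the DNA at those genes can be read beside their values. Each is the RefSeq window on GRCm38.p6 that runs from 250 bases before to 50 bases after the annotated transcript start, printed 5′ to 3′ on the gene's strand. Cubn lies at chr2:13491827-13492126 on the minus strand, Lrp2 at chr2:69585980-69586279 on the minus strand and the first Dab2 window at chr15:6299539-6299838 on the plus strand. Capitals mark GATA motifs.
Cubn: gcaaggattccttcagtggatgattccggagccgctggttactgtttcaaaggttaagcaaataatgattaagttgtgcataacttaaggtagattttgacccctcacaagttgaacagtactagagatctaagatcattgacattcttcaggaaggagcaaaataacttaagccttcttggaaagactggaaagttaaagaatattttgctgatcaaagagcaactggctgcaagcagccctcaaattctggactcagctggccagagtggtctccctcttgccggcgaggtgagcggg
Lrp2: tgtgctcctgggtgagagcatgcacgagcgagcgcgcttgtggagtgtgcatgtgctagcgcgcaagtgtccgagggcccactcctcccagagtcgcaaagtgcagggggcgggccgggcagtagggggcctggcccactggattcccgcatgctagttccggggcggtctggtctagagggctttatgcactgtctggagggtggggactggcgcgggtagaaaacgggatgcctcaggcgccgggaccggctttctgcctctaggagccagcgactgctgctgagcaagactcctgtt
Dab2: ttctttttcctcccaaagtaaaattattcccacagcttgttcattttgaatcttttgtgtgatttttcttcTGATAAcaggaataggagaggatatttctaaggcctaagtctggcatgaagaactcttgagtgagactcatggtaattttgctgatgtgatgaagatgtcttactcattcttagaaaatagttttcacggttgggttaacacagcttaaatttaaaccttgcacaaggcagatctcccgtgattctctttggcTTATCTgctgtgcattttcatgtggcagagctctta

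The windows searched were those of 6 members (Cubn, Amn, Lrp2, Dab2, Pdgfra and Foxa2), 9 windows in all. Gata4 and Gata6 were not searched, so nothing is said of their starts. Windows on 1 chromosome were left out for the members but not for the 32851 windows used for comparison. The octamer ATGCAAAT, the sequence that OCT4 and other POU factors are known to bind, was searched on both strands and had no exact match in the 9 windows, while 1.74% of 32851 RefSeq windows held one. The GATA motif was searched on both strands as AGATAA, with T also allowed as the first letter and G as the last, and occurs in 29.8% of the windows. It matched at 2 places in the first Dab2 window, at bases 72 to 77 and, on the opposite strand, at bases 265 to 270, counted from the window's 5′ end. The only other match was in 1 of the 3 Foxa2 windows, at bases 68 to 73. A match is a run of letters and no evidence of binding, and a window without one holds none of these letters within its 300 bases.

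All levels below are log2 intensities relative to the array's 75th percentile, so 0 is the brightness of that percentile and a step of 1 is a doubling. They are comparable between arrays for 1 probe and not between probes. Where the clones of a group are said below to lie apart from all others, this only describes the readings. The share of all genes that separate in the same way was not counted. Between 44.3% and 58.4% of the probes were well above background by the scanner software's own flag, with 48.7% and 44.3% in the LcPOU5F1 clones, 44.3% and 54.0% in the LcPOU5F3 clones, and 58.2% and 58.4% in the mOct4 clones. The median level of the 308 negative control spots was -4.84 and -4.53 in the LcPOU5F1 clones, -4.55 and -6.07 in the LcPOU5F3 clones, and -5.99 and -5.81 in the mOct4 clones. Dim probes therefore had a higher floor on the first 3 of these arrays than on the other 3. No spot was saturated. Slide 1 held 5 arrays and slide 2 held mOct4 clone 2 alone.

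Cubn was the receptor of the pair that was bright in the LcPOU5F1 lines alone. Its fitted probe read -0.95 and -1.48 in LcPOU5F1 clones 4 and 5, -4.54 and -4.84 in LcPOU5F3 clones 1 and 2, and -5.38 and -5.81 in mOct4 clones 1 and 2. Only the LcPOU5F1 arrays were well above background, at intensities of 191 and 117, against 20.4 and 14.7 in the LcPOU5F3 clones and 8.21 and 5.32 in the mOct4 clones. The 4 readings of the other groups lay within 1.23 of the negative control median of their own array.

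Where a group had no array well above background, a fold is given as a lower bound. It sets the bright group's mean against a floor, the mean over the dim group's arrays of the lowest well-above-background signal or of the probe's own signal, whichever was higher. Cubn was at least 5.57-fold higher in LcPOU5F1 than in mOct4 clones (fitted log2 fold change 4.38 ± 0.27, standard error) and at least 3.80-fold higher than in LcPOU5F3 clones (3.47 ± 0.27). The fitted values rest on readings below background and are not bounds. They depend on how dim signals are treated. With 1 common floor for all arrays, the highest of the 6, the fitted value was 1.16 in both comparisons, and with normexp background correction it was 1.40 against mOct4 and 1.67 against LcPOU5F3. Under both settings the difference from mOct4 no longer passed the threshold of the fit over all genes. LcPOU5F3 and mOct4 were both below background for Cubn, so no fold is given between them. A second Cubn probe was not well above background on any of the 6 arrays. Above the negative control median of the same array it stood at 1.12 and 0.07 in the LcPOU5F1 clones, 0.10 and 0.45 in the LcPOU5F3 clones and 0.55 and 0.65 in the mOct4 clones. It was thus highest in LcPOU5F1 clone 4 and lowest in LcPOU5F1 clone 5, and did not show the difference seen with the fitted probe. The position of either probe in the transcript was not analysed here.

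Lrp2, the megalin gene, took a different order. It read 0.02 and 0.66 in the LcPOU5F1 clones, 2.69 and 4.36 in the LcPOU5F3 clones, and 2.47 and 2.50 in the mOct4 clones, and was well above background on every array. Both LcPOU5F1 clones lay below all other arrays, and LcPOU5F3 clone 2 lay well above its partner. Lrp2 was 9.08-fold lower in LcPOU5F1 than in LcPOU5F3 clones (log2 fold change -3.18 ± 0.57), with limma's adjusted p = 0.0245 over all 14590 genes. The change was -4.02 without LcPOU5F3 clone 1 and -2.35 without LcPOU5F3 clone 2, and without either LcPOU5F1 or either mOct4 clone it no longer passed the threshold (adjusted p = 0.0778 to 0.112). Against mOct4, Lrp2 was 4.42-fold lower in LcPOU5F1 clones (-2.14 ± 0.57, 95% interval -3.60 to -0.68), which did not pass after adjustment (adjusted p = 0.230) but did when either LcPOU5F3 clone was left out (adjusted p = 0.0338). In LcPOU5F3 clones it was 2.05-fold above mOct4 (1.04 ± 0.57, interval -0.42 to 2.50, adjusted p = 0.238), and 1.88 on the log2 scale without LcPOU5F3 clone 1 (adjusted p = 0.0137). The gene was proposed as part of the set with results of these arrays known, so these tests are not independent of that choice.

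Amn, whose product carries cubilin to the membrane, was dimmer in both coelacanth groups. It read -0.89 and -1.32 in the LcPOU5F1 clones, -1.16 and -1.14 in the LcPOU5F3 clones, and 0.46 and 0.36 in the mOct4 clones, and was well above background on all 6 arrays. The 4 coelacanth arrays lay below both mOct4 arrays, in a gene chosen for its level in the LcPOU5F3 clones against mOct4. Amn was 2.86-fold lower in LcPOU5F1 clones (-1.52 ± 0.19) and 2.96-fold lower in LcPOU5F3 clones (-1.56 ± 0.19) than in mOct4 clones. Between the paralogs the difference was 0.05 ± 0.19, with a 95% interval from -0.44 to 0.53, and its sign was not stable to the scaling (-0.088 with quantile normalization). The comparisons of the 2 coelacanth groups with mOct4 share the mOct4 arrays. In the LcPOU5F1 clones, the level of Cubn was thus bright where that of its partner was lower than in mOct4 clones.

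Dab2, the endocytic adaptor of both receptors, was brightest in the LcPOU5F3 lines. It read -2.01 and -2.69 in the LcPOU5F1 clones, 0.06 and 1.20 in the LcPOU5F3 clones, and -3.80 and -4.37 in the mOct4 clones. Both LcPOU5F3 arrays, LcPOU5F1 clone 4 and no other array were well above background, and both LcPOU5F3 readings lay above all the others. Measured from each array's own negative controls, Dab2 stood at 2.83 and 1.84 in the LcPOU5F1 clones, 4.61 and 7.27 in the LcPOU5F3 clones, and 2.19 and 1.45 in the mOct4 clones, where the LcPOU5F1 and mOct4 clones overlapped. Dab2 was at least 20.1-fold higher in LcPOU5F3 than in mOct4 clones (fitted log2 fold change 4.72 ± 0.47). Since 1 of the 2 LcPOU5F1 arrays measured it and neither mOct4 array did, no fold is given for LcPOU5F1 against mOct4 (fitted 1.73 ± 0.47). Between the paralogs it was at least 7.11-fold lower in LcPOU5F1 than in LcPOU5F3 clones (fitted -2.98 ± 0.47), with the unmeasured LcPOU5F1 array at its floor. With the common floor, the fitted values were 0.18 for LcPOU5F1 versus mOct4, 3.00 for LcPOU5F3 versus mOct4 and -2.82 between the paralogs. Dab2 and Lrp2 were both higher in LcPOU5F3 clone 2, the line with the lower embryonic stem cell marker sum given below, than in LcPOU5F3 clone 1.

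**Figure D1:**
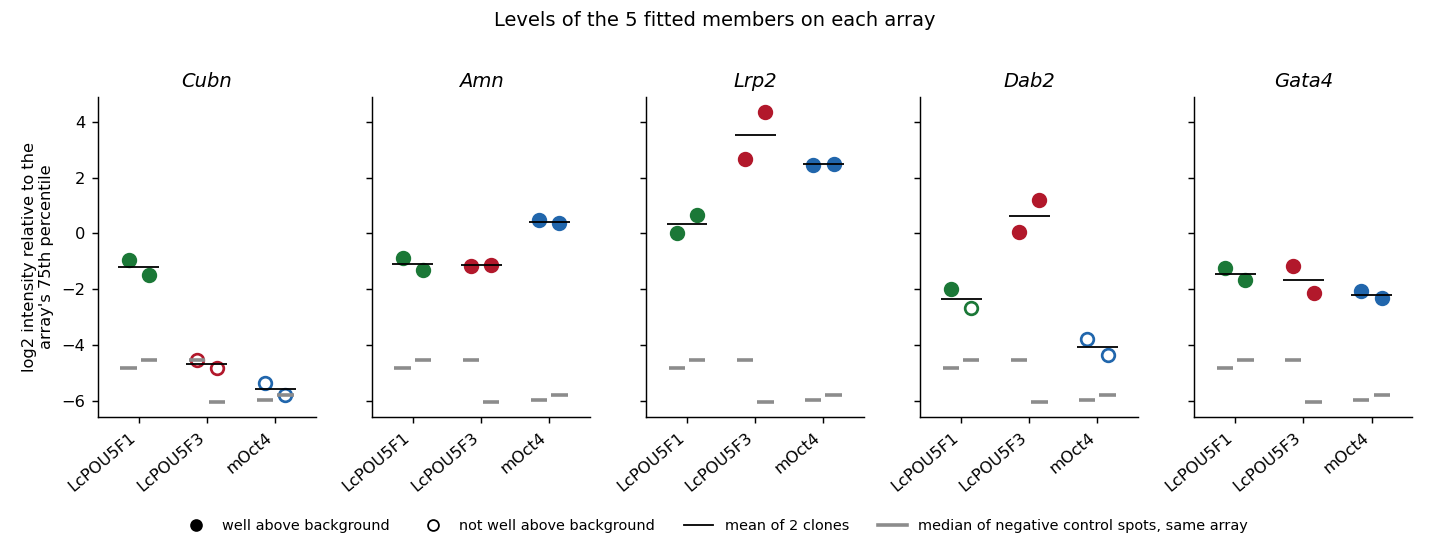
Log2 intensity of the 5 fitted genes on each array, relative to the array's 75th percentile, for LcPOU5F1, LcPOU5F3 and mOct4 clones; filled points are well above background, black bars are means of 2 clones and grey bars the array's negative control median. Cubn is bright in the LcPOU5F1 clones (-0.95 and -1.48), Dab2 in the LcPOU5F3 clones (0.06 and 1.20) and Amn in the mOct4 clones (0.46 and 0.36).

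Gata4, a zinc-finger activator of extraembryonic endoderm genes, was dim but well above background everywhere. It read -1.24 and -1.68 in the LcPOU5F1 clones, -1.19 and -2.16 in the LcPOU5F3 clones, and -2.07 and -2.32 in the mOct4 clones. LcPOU5F3 clone 1 gave the highest of the 6 readings, and LcPOU5F3 clone 2 lay between the mOct4 clones. No comparison passed the test: the log2 fold change was 0.73 ± 0.37 for LcPOU5F1 over mOct4 (interval -0.20 to 1.67, adjusted p = 0.397), 0.52 ± 0.37 for LcPOU5F3 over mOct4 (interval -0.41 to 1.46, adjusted p = 0.343) and 0.21 ± 0.37 between the paralogs (interval -0.72 to 1.14, adjusted p = 0.687). The 3 highest Gata4 readings came from the 3 arrays with the highest negative control medians. Measured from each array's own negative controls, Gata4 stood at 3.60 and 2.85 in the LcPOU5F1 clones, 3.36 and 3.91 in the LcPOU5F3 clones, and 3.92 and 3.49 in the mOct4 clones, where the order of the groups was not the same. The part of that floor in the Gata4 levels was not tested.

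Gata6, the earliest of the primitive endoderm activators, stood at the edge of detection. It read -1.81 and -3.15 in the LcPOU5F1 clones, -2.42 and -1.16 in the LcPOU5F3 clones, and -3.04 and -3.65 in the mOct4 clones. In each group 1 of the 2 arrays was well above background (LcPOU5F1 clone 4, LcPOU5F3 clone 2 and mOct4 clone 1), so the gene did not pass the filter and was not tested. Its highest reading, in LcPOU5F3 clone 2, came at an intensity of 187, and the LcPOU5F1 clones overlapped with those of both other groups.

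Pdgfra, the PDGF receptor that marks primitive endoderm on the cell surface, was measured by 10 spots of 1 probe and was not well above background on any array. Its level above the array's negative control median was 0.01 and -0.02 in the LcPOU5F1 clones, -0.00 and 0.33 in the LcPOU5F3 clones, and 0.15 and 0.01 in the mOct4 clones. Foxa2, a forkhead factor of endoderm, has 2 probes. The first lay slightly below the negative control median on all 6 arrays, by 0.06 to 0.11. The second was well above background on mOct4 clone 1 alone, at 2.41 above that median, with 1.60 in LcPOU5F3 clone 2 and between -0.10 and 0.03 on the other 4 arrays. In no group was it well above background on both arrays. A reading near the negative controls means that the transcript was not detectable here, not that it was absent.

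**Figure D2:**
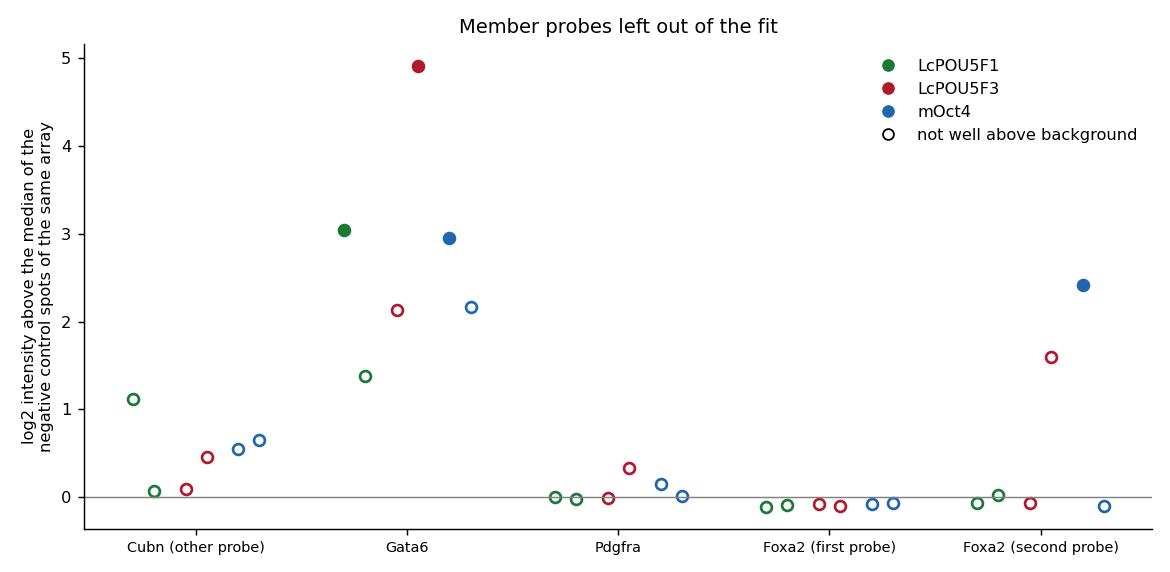
Log2 intensity above the same array's negative control median for the member probes left out of the fit, by array, for LcPOU5F1, LcPOU5F3 and mOct4 clones; filled points are well above background. Gata6 is well above background on 1 array of each group, Pdgfra on none and the second Foxa2 probe on mOct4 clone 1 alone.

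At an adjusted p under 0.05 (limma, Benjamini-Hochberg), the fit over the whole table called 0.0343% of genes for LcPOU5F1 versus mOct4, 23.5% for LcPOU5F3 versus mOct4 and 20.6% for LcPOU5F1 versus LcPOU5F3. Among the 5 fitted members, 1 was called in the first comparison (Cubn, higher), 2 in the second (Dab2 higher and Amn lower) and 3 in the third (Cubn higher, Dab2 and Lrp2 lower). Nothing is read from these counts, since the set was chosen on such values. Cubn entered the fit through the LcPOU5F1 arrays alone and Dab2 through the LcPOU5F3 arrays alone, so each had to differ. In the first comparison 5 genes passed in all (2 higher, 3 lower) and 2279 had an unadjusted p under 0.05. With any 1 of the 4 LcPOU5F1 and mOct4 clones left out, limma called no gene, Cubn included (823 to 1640 genes at an unadjusted p under 0.05), and with either LcPOU5F3 clone left out it called 529. Dab2 and Amn were not called in the second comparison without either mOct4 clone, and Dab2 and Lrp2 were not called in the third without either LcPOU5F1 or either mOct4 clone.

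**Figure D3:**
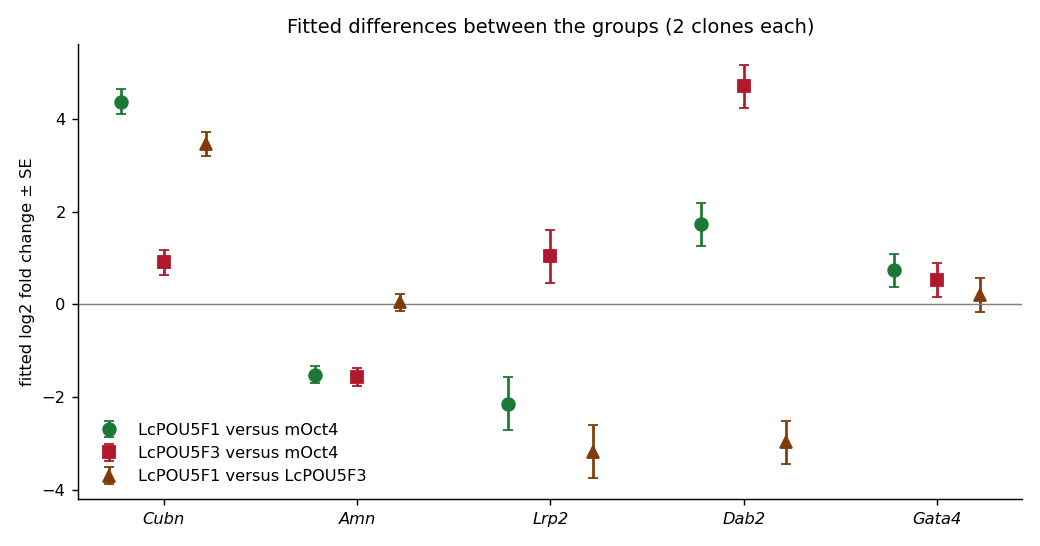
Fitted log2 fold changes of the 5 genes with standard errors, for LcPOU5F1 versus mOct4, LcPOU5F3 versus mOct4 and LcPOU5F1 versus LcPOU5F3 (2 clones each). Cubn (3.47) differs between the paralogs in the direction opposite to Lrp2 (-3.18) and Dab2 (-2.98), while Amn (0.05) and Gata4 (0.21) lie near 0.

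The name primitive endoderm was checked against 11 markers, which hold the 8 genes and, among others, Sox17 and Sox7. Of these, 8 and 5 were well above background in the LcPOU5F1 clones, 5 and 7 in the LcPOU5F3 clones, and 8 and 5 in the mOct4 clones. Their summed linear level, in units of the 75th percentile, was 3.73 and 3.62 in the LcPOU5F1 clones, 9.13 and 24.3 in the LcPOU5F3 clones, and 7.77 and 7.60 in the mOct4 clones. Lrp2 makes up most of the LcPOU5F3 and mOct4 sums, Pdgfra was undetected everywhere and Foxa2 nearly so. No line had all 11 markers well above background, with 8 at most, and the genes are described singly here. Sox17, an endoderm SRY-box factor, was 0.88 ± 0.21 higher in LcPOU5F1 than in mOct4 clones on the log2 scale and did not pass the test (adjusted p = 0.194). Sox17 read -2.30 and -2.78 in the LcPOU5F1 clones and -3.42 and -3.43 in the mOct4 clones. The reading of LcPOU5F1 clone 5 lay below the lowest well-above-background level of its array, -2.39. Negative control medians were also higher on both LcPOU5F1 arrays than on both mOct4 arrays. The part of that floor in the Sox17 difference was not tested. Sox7, a relative of Sox17 in parietal endoderm, was not in the fitted table. It read -1.95 and -2.96 in the LcPOU5F1 clones, -3.93 and -4.68 in the LcPOU5F3 clones, and -3.48 and -3.91 in the mOct4 clones. Only 2 arrays, LcPOU5F1 clone 4 and mOct4 clone 1, were well above background, so no order of the groups is read from these levels.

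Among markers of other cell types, those of trophectoderm and embryonic stem cells set the LcPOU5F3 group apart. The 12 trophectoderm markers summed to 33.9 and 25.1 in the LcPOU5F1 clones, 529 and 557 in the LcPOU5F3 clones, and 37.0 and 37.6 in the mOct4 clones, and of 11 tested, 8 rose and 1 fell in LcPOU5F3 against mOct4. Krt18 and Krt8 make up most of the LcPOU5F3 sums, and Krt7, among those that rose, entered the fit through the LcPOU5F3 arrays alone. The 8 embryonic stem cell markers summed to 356 and 436 in the LcPOU5F1 clones, 119 and 63.1 in the LcPOU5F3 clones, and 407 and 435 in the mOct4 clones, and all 8 fell in LcPOU5F3 against mOct4. Without either mOct4 clone, 2 of the trophectoderm markers rose and none of the embryonic stem cell markers passed, with medians of 3.80 to 3.90 and -2.32 to -2.10, against 3.83 and -2.21 with all clones. The 7 definitive endoderm markers summed to 1.13 and 1.03 in the LcPOU5F1 clones, 1.56 and 0.850 in the LcPOU5F3 clones, and 3.43 and 4.41 in the mOct4 clones. Eomes, also a trophectoderm marker, makes up most of these sums, and Cxcr4, Cer1 and Mixl1 were well above background on no array. The 7 mesoderm markers summed to between 6.56 and 9.99 on every array. Kdr makes up most of these sums, and Foxf1, Mesp1, Mixl1 and T were well above background on no array. The 7 fibroblast markers summed to 1.13 and 1.15 in the LcPOU5F1 clones, 5.16 and 4.37 in the LcPOU5F3 clones, and 2.15 and 1.83 in the mOct4 clones. Thy1 makes up most of the LcPOU5F3 and mOct4 sums, and Lum and Postn were well above background on no array. The part of these cell types in the Dab2, Lrp2 and Amn levels of the LcPOU5F3 lines was not tested. In RNA from whole cultures, fewer cells of a type and less RNA per cell cannot be told apart.

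The counts of called genes in the lists that follow stand beside the shares over all genes given above. These were 0.0343% for LcPOU5F1 versus mOct4, 23.5% for LcPOU5F3 versus mOct4 and 20.6% between the paralogs. A list without a call in LcPOU5F1 versus mOct4 is near that share and is not read as unchanged. Where 1 of the 2 arrays of a dimmer group measured a gene, the fold is a lower bound with the other array at its floor.

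The wider machinery of cubilin and megalin uptake was followed through 22 genes, of which 18 were tested. Against mOct4, 5 rose and 2 fell in LcPOU5F3 clones, with a median log2 fold change of 0.24 beside -0.09 over all genes. Among those that rose were Tcn2, the carrier of vitamin B12 in blood (2.62-fold, 1.39 ± 0.20, adjusted p = 0.0131), the recycling protein Ehd1 (2.24-fold), the megalin chaperone Lrpap1 and the recycling GTPase Rab11a. Rbp4, the retinol carrier that megalin takes up, fell 3.72-fold (-1.90 ± 0.25, adjusted p = 0.0115), and Trf, the transferrin that cubilin binds, fell 3.53-fold. Between the paralogs none was higher and 6 were lower in LcPOU5F1 than in LcPOU5F3 clones, with a median of -0.23 beside 0.21 over all genes. Clcn5, the endosomal chloride transporter lost in Dent disease, was 6.19-fold lower (-2.63 ± 0.29, adjusted p = 0.00935), and Lrpap1 was 5.04-fold lower (-2.33 ± 0.29, adjusted p = 0.0116). Tcn2 was 2.35-fold and Rab11a 2.10-fold lower, and Ehd1 was also among the 6. For LcPOU5F1 against mOct4 no gene of the list passed, and its median was -0.17 beside 0.10 over all genes.

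Of the 13 other members of the LDL receptor family, the family of megalin, 11 were tested. In LcPOU5F3 against mOct4 clones, Lrp10 rose 2.15-fold, while the sorting receptor Sorl1 fell 9.78-fold (-3.29 ± 0.57, adjusted p = 0.0197) and the VLDL receptor Vldlr fell 2.65-fold, where its second probe gave -0.55 ± 0.29 and did not pass. In LcPOU5F1 against LcPOU5F3 clones, Sorl1 was 6.66-fold and Lrp11 2.07-fold higher and Lrp10 was 2.22-fold lower. None passed for LcPOU5F1 against mOct4. The family median was -0.01 for LcPOU5F1 versus mOct4, 0.11 for LcPOU5F3 versus mOct4 and -0.02 between the paralogs.

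Among 12 regulators of the primitive endoderm decision, 8 were tested. Fgf4, the growth factor that drives it, fell 6.35-fold in LcPOU5F3 against mOct4 clones (-2.67 ± 0.50, adjusted p = 0.0235), Nanog, the epiblast factor set against Gata6, fell 4.11-fold, and the FGF receptor Fgfr1 rose 1.99-fold. Between the paralogs Fgf4 was 9.83-fold and Nanog 3.36-fold higher in LcPOU5F1 clones, and the receptors Fgfr1 and Fgfr2 were 2.57-fold and 2.24-fold lower. Other probes disagreed for Nanog, with -0.086 against mOct4 and 0.086 between the paralogs, and for Fgfr1, where 1 of 2 other probes had the opposite sign in both comparisons (-0.64 and 0.27). The list's median was 0.21 for LcPOU5F1 versus mOct4, where none passed, 0.13 for LcPOU5F3 versus mOct4 and 0.45 between the paralogs.

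Of 23 visceral endoderm genes, the tissue that covers the egg cylinder and takes up nutrients through cubilin, 14 were tested, and Afp, Ttr, Apoa1 and Apob, its secreted products, were not among them. In LcPOU5F3 against mOct4 clones 2 rose and 6 fell, beside 23.5% of all genes called, with a median of -0.80. The Wnt antagonist Dkk1 was at least 11.3-fold higher (fitted 4.88 and with the common floor 2.18). Dkk1 entered the fit through the LcPOU5F3 arrays alone, so it had to differ here and between the paralogs, and its calls are a description. The cofactor Cited1 rose 10.2-fold, while the protease inhibitor Spink1 fell 15.4-fold (-3.94 ± 0.45, adjusted p = 0.0092). Between the paralogs 3 of the 14 were called, a share near the 20.6% of all genes. Cited1 was 19.5-fold lower and Dkk1 at least 5.09-fold lower in LcPOU5F1 clones, and Spink1 was 6.90-fold higher. For LcPOU5F1 versus mOct4 none passed, with a median of -0.71, and the median between the paralogs was 0.18.

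The parietal endoderm and basement membrane list had 12 of 14 genes tested, and 6 rose and none fell in LcPOU5F3 against mOct4 clones, with a median of 1.14. The laminin chain gene Lamb1 rose 5.01-fold (2.32 ± 0.17, adjusted p = 0.00464), the activin binder Fst 9.57-fold, the collagen IV gene Col4a2 3.84-fold and Thbd, thrombomodulin, at least 3.83-fold (fitted 2.11). With the common floor Thbd was at 0.61 and did not pass (adjusted p = 0.297). It was well above background on both LcPOU5F3 arrays and on neither mOct4 array, so its call is a description. In LcPOU5F1 against LcPOU5F3 clones, Lamb1 was 3.70-fold lower, Fst 5.40-fold lower and Serpinh1, the collagen chaperone, 3.74-fold lower. The proteoglycan gene Srgn was at least 6.68-fold higher (fitted 3.04 ± 0.27, adjusted p = 0.00659), with 1 of 2 LcPOU5F3 arrays measured, and the laminin chain Lama1 was 2.97-fold higher. The median between the paralogs was -0.60, and it was 0.48 for LcPOU5F1 versus mOct4, where none passed.

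The GATA family and its cofactors, relatives of the member genes Gata4 and Gata6, had 5 of 6 genes tested. In LcPOU5F3 against mOct4 clones, Gata3 rose 15.6-fold (3.97 ± 0.40, adjusted p = 0.00716) and Gata2 10.7-fold, both of them also trophectoderm markers, and the blood factor Gata1 fell at least 12.4-fold with 1 of 2 LcPOU5F3 arrays measured (adjusted p = 0.0389, and 0.0508 with the common floor). In LcPOU5F1 against LcPOU5F3 clones, Gata3 was at least 39.5-fold and Gata2 at least 12.9-fold lower, each with 1 of 2 LcPOU5F1 arrays measured, and the cofactor Zfpm1 was 3.03-fold lower. The median was -1.49 for LcPOU5F1 versus mOct4, where none passed, 0.11 for LcPOU5F3 versus mOct4 and -1.60 between the paralogs. Of 6 PDGF ligands and receptors other than Pdgfra, 5 were tested, and the ligand genes Pdgfb (4.79-fold) and Pdgfc (11.1-fold) rose in LcPOU5F3 against mOct4 clones. The receptor Pdgfrb fell at least 1.39-fold there with 1 of 2 LcPOU5F3 arrays measured, a call kept in 1 of 17 alternative settings. Both ligands were lower in LcPOU5F1 than in LcPOU5F3 clones, Pdgfb by 5.70-fold and Pdgfc by at least 22.5-fold, with 1 of 2 LcPOU5F1 arrays measured for Pdgfc. The median was -0.25 for LcPOU5F1 versus mOct4, where none passed, 0.62 for LcPOU5F3 versus mOct4 and -0.05 between the paralogs.

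**Figure D4:**
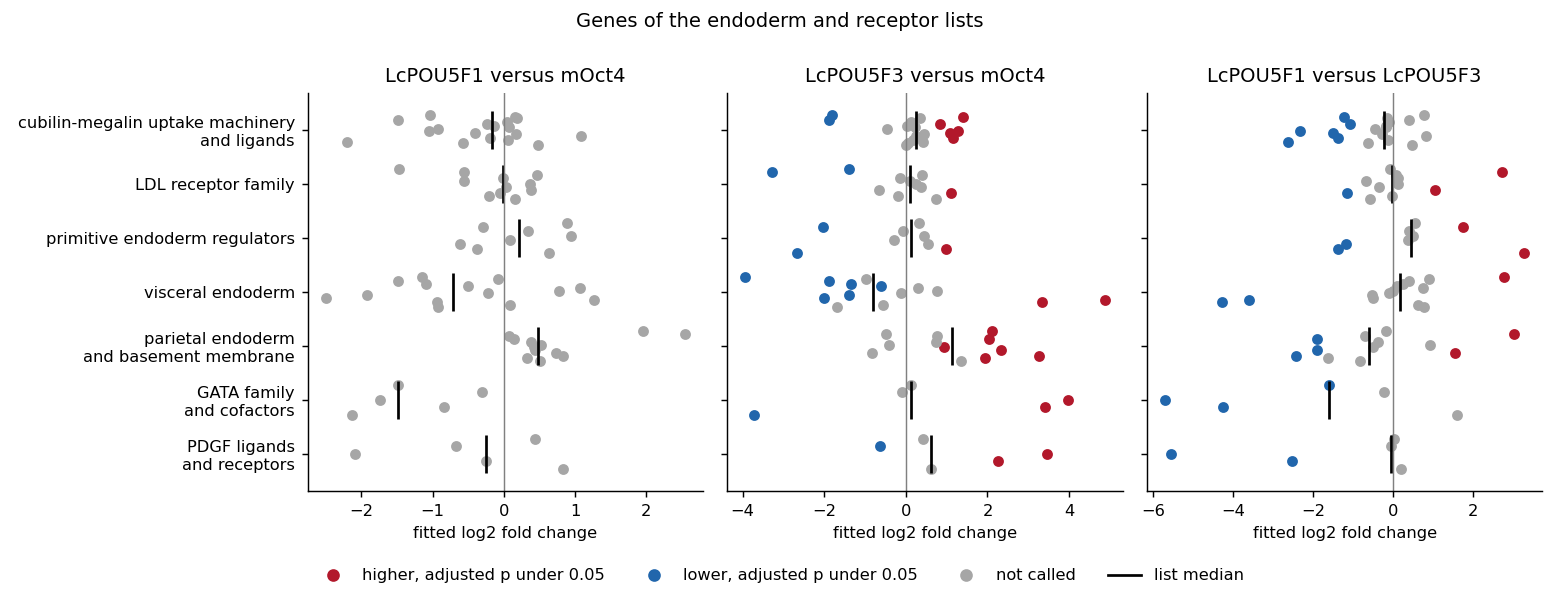
Fitted log2 fold changes of the genes of the 7 lists for the 3 comparisons, each point 1 gene, with red higher, blue lower and grey not called at adjusted p under 0.05 and a black bar at the list median. No gene is called for LcPOU5F1 versus mOct4, where 0.0343% of all genes were, and the parietal endoderm list has the highest median for LcPOU5F3 versus mOct4 (1.14).

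Over the 72 listed genes that were tested, 19 rose and 13 fell in LcPOU5F3 against mOct4 clones, and 7 were higher and 19 lower in LcPOU5F1 than in LcPOU5F3 clones, where 23.5% and 20.6% of all genes were called. These comparisons share the LcPOU5F3 arrays. For LcPOU5F1 against mOct4 limma called none after adjustment, where it called 0.0343% of all genes. At an unadjusted p under 0.05 there were 20 of the 72, beside 2279 of all 14590 genes. Without either mOct4 clone none of the 72 passed for LcPOU5F3 against mOct4 (31 or 32 at an unadjusted p under 0.05), and 1 was higher and 6 were lower between the paralogs. Of the 23 differences between the paralogs named by rule, 7 passed in every alternative setting run (Clcn5, Cited1, Srgn, Lamb1, Gata3, Gata2 and Pdgfb).

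The genes whose 6 readings ran closest to each fitted member were found by the root mean square difference in log2 units over the 6 arrays, after centring each gene on its own mean. For Cubn they were Srgn (0.80), Gpx2 (0.83) and Mycl (1.02), where 4 of the 6 Cubn readings lay below background and have no order, so these distances say little about how closely a gene ran with Cubn. The same holds for 3 of the 6 readings of Dab2. For Lrp2 they were Gpr85 (0.22), Camk1 (0.26) and Sfi1 (0.33). For Dab2 they were Perp (0.18), Macc1 (0.36) and Cpa4 (0.42), and for Amn they were Adora2b (0.13), Dusp2 (0.16) and Fbxo41 (0.18). For Gata4 they were Icam4 (0.063), Tssk6 (0.066) and Hoxa13 (0.12), against a standard deviation of 0.48 for Gata4. Several neighbours were themselves dim. Adora2b and Dusp2 were well above background on 3 of the 6 arrays, Fbxo41, Macc1 and Cpa4 on 2, and Gpr85, Camk1 and Hoxa13 on 4. Distances to these genes rest in part on readings not well above background. With 6 arrays in 3 groups, many genes can share such a pattern, and the neighbours are given as a description.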

How the data were processed

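Total RNA (RNA integrity number 10 per the labels) of 6 lines was hybridised to 1-colour Agilent arrays (59305 spots of 55681 probes, controls aside). Per the file headers, the deposited spot intensity comes from Agilent Feature Extraction 11.0.1.1 (protocol GE1_1100_Jul11) and is linear and background-subtracted, with arrays not scaled to each other. Flags for signals well above background are the software's. The deposited series matrix holds the same intensity values within 0.499%. The array design names the build mm9.

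Intensities were log2 transformed and centred on each array's 75th percentile. Controls and outlying spots by the software's flag were dropped, and repeated spots of a probe were averaged. Transcripts were named through a RefSeq table of GRCm38.p6, which left 50.3% of probes unnamed. Probes well above background on both arrays of a group were kept (30944, of which 5 with an incomplete value were dropped). The brightest probe stood for a gene, giving 14590 genes. A model of 3 group means over the 6 arrays was fitted in R 4.3.3 by limma 3.58.1 (lmFit, eBayes, 3 residual degrees of freedom), with Benjamini-Hochberg adjustment and a threshold of 0.05. A p-value here rests on the spread between separately picked clones, pooled over the 3 groups and moderated by eBayes with all genes. Each clone is on 1 array, so clone and array differences cannot be told apart in it. With 2 arrays a group the precision is limited. The median coefficient of variation of replicated probes was 7.13% to 8.24% per array. Clones of a group correlated at 0.974 to 0.994 and arrays of different groups at 0.898 to 0.973 over probes, which are not independent.

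The members, gene lists and markers were chosen with earlier results of these data known. By rule the text names all 8 members, up to 4 called genes per list and comparison with the smallest p, and 3 nearest genes per fitted member. A few listed genes are not reported here. The calls of Lrpap1 and Rab11a against mOct4, of Ehd1 and Rab11a between the paralogs, and of Trf and Serpinh1 fall outside it and were named after their values were seen. Normexp used the median spot signal with an offset of 50, because the mean was not among the columns used here. The steps were tested on simulated data. Alternatives were no filter and a stricter one, every kept probe, quantile normalization, median centring, normexp, a common floor, an intensity trend, the series matrix, the 4 arrays compared, the slide or clone number as a block, and each clone left out. Runs of these on the listed genes were added after the data were seen. No columns of other series were present.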

Additional observations from a re-analysis of the deposited data

How the results depend on the processing

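Of 104 alternative values for the 6 differences of Lrp2 and Gata4, 88 kept their direction and their side of the threshold, 7 lost the call, 5 gained it and 4 changed sign. For Cubn, Dab2 and Amn, on whose values the set was chosen, fitted values are given and their calls are left out of these totals. The counts of members called that follow include them, and nothing is read from those counts. Over all 5 genes 8 values changed sign. Cubn in LcPOU5F3 versus mOct4 became -0.27 with normexp. Between the paralogs, Amn became -0.088 with quantile normalization and -0.36 centred on the median, and Gata4 became -0.046 and -0.19. With 1 clone left out, Amn ranged from -0.17 (without LcPOU5F1 clone 4) to 0.26, and Gata4 from -0.27 (without LcPOU5F3 clone 2) to 0.70, with -0.012 without LcPOU5F1 clone 4. Cubn ranged from 1.16 to 4.64 in LcPOU5F1 versus mOct4 and from 1.16 to 3.74 in LcPOU5F1 versus LcPOU5F3. In LcPOU5F3 versus mOct4, Dab2 ranged from 2.75 to 5.29 and Amn from -1.61 to -1.18. Lrp2 between the paralogs stayed past the threshold in 10 of 17 alternatives. Of 793 alternative values for the 46 differences of listed genes, 545 kept their call and 248 lost it. None changed sign.

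For LcPOU5F1 versus mOct4 (5 genes and 1 member called), the calls were 0 genes and 0 members with no filter, with the strict filter, with every kept probe and with the slide as a block (limma, where 823 to 2336 genes had an unadjusted p under 0.05 in the fits per gene). They were 106 genes with quantile normalization, 748 genes and 3 members centred on the median, 13 genes and 0 members with normexp, 18 genes and 0 members with the common floor, 29 genes with the intensity trend, and 529 genes and 3 members from the 4 arrays compared. Leaving out 1 clone gave 0 to 529 genes and 0 to 3 members. For LcPOU5F3 versus mOct4 (3435 genes, 2 members), the calls were 1544 genes with no filter, 1 member with the strict filter, 46 genes and 0 members with the slide as a block, and 2206 genes from the 4 arrays. Leaving out 1 clone gave 36 to 5069 genes and 0 to 3 members, with 36 without mOct4 clone 1, 46 without mOct4 clone 2 and 5069 without LcPOU5F3 clone 1. For LcPOU5F1 versus LcPOU5F3 (3007 genes, 3 members), the calls were 965 genes with no filter, 1 member with the strict filter, and 496 genes and 1 member both with the slide as a block and from the 4 arrays. Leaving out 1 clone gave 447 (without LcPOU5F1 clone 5) to 5851 genes (without LcPOU5F3 clone 1) and 1 to 3 members. The stricter filter holds 11617 genes and 3 members, and fits without a clone or with the slide as a block have fewer residual degrees of freedom. The total degrees of freedom, which include those that eBayes takes from all genes, had a median of 1630 with median centring and 5.16 in the main fit. What this did to the calls was not tested, nor was the cause of the other shifts.

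Centring on the median gave 501 higher and 1851 lower between the paralogs, where the 75th percentile gave 1549 and 1458, and 47 higher and 701 lower for LcPOU5F1 versus mOct4, where it gave 2 and 3. It moved the median of all genes to -0.20 and -0.27, against 0.21 and 0.10. LcPOU5F3 and mOct4 share clone numbers 1 and 2, and the main fit took their clones as unpaired. The deviations of same-numbered clones correlated at -0.0963. With 2 clones a group this is a single value and cannot decide whether the numbers pair them. A replicate block over those 4 arrays left 0 genes and 0 members called, with 4399 genes at an unadjusted p under 0.05. The slide as a block equals leaving out mOct4 clone 2. Below the lowest well-above-background level, from -3.91 to -2.37 over the arrays, readings have no order, which limits Cubn, Dab2, Gata6, Pdgfra and Foxa2.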
